A study of Mus musculus with 24 samples.

Results

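The comparison described here is the addition of Suv39h1 and Suv39h2 mutation to Eset1 deletion in mouse embryonic fibroblasts (MEFs), read from RNA-seq counts of 3 E1 S1S2 and 3 E1 libraries, which are 6 of the 24 libraries sequenced. The libraries were chosen by their labels and not by any measured value. All cells derive from 1 MEF line, E1c, in which exons of Eset1 (Setdb1) are flanked by loxP sites and can be removed by a tamoxifen-inducible Cre recombinase. WT cells are this line without 4-hydroxytamoxifen (4-OHT), and E1 cells are the same line after 1 µM 4-OHT. E1 S1S2 cells are a single clone, B1, obtained from E1c after transfection of Cas9 with guide RNAs for Suv39h1 and Suv39h2, and then treated with 4-OHT, so both groups share the deletion of Eset1. The treatment field names 4-OHT for every sample, whereas the titles separate treated from control cultures, and the titles were followed. The study's methods describe a Cre construct carrying puromycin resistance that was put back into mutant clones, which were then kept under puromycin. The mutations, the choice of 1 clone and this selection therefore cannot be told apart in any value of E1 S1S2 against E1. The same mutations were also added in another clone, from E1E2 G9Gl (mutant for Eset1, Eset2, G9a and Glp, clone E2) to 6KO2 (all 6 enzymes mutant, clone E2F4), both after 4-OHT and with 3 libraries each. This second addition shares no library with the first and served as the comparison. E1E2, the Eset2-mutant clone after 4-OHT, carries no Suv39h mutation, and its levels are given beside some results without a test. The condition E2 is the same Eset2-mutant clone without 4-OHT, so Eset1 was not deleted in it. It is not the clone named E2, which is E1E2 G9Gl.

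Suv39h1 and Suv39h2 are paralogous histone methyltransferases that trimethylate lysine 9 of histone H3 (H3K9me3) at constitutive heterochromatin, above all at the major satellite repeats beside mouse centromeres. Eset1 places the same mark mainly on endogenous retroviruses, where it is brought by KRAB zinc finger proteins and the cofactor Trim28. HP1 proteins bind H3K9me3 and help to keep the marked DNA compact and silent. RNA from repeats can be sensed inside the cell as if it came from a virus, which leads to transcription of interferon-stimulated genes.

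The libraries of both groups were similar in depth, with 30389345 to 35915997 counts in E1 and 32003043 to 37419071 in E1 S1S2, and repeat elements took between 15.6% and 16.0% of the counts in each. Values below are normalized counts, that is counts divided by the effective library size relative to its geometric mean over the 24 libraries. They are not divided by length, so levels are not compared between genes. Fold changes are log2 values of E1 S1S2 against E1 with their standard error (SE), from edgeR's quasi-likelihood test with Benjamini-Hochberg adjustment over all 18565 genes or 1207 repeat elements tested. A feature was called, and is said to have risen or fallen, when its log2 fold change was 1 or more in size and its adjusted p did not exceed 0.01. Nothing in the labels says how separately the 3 cultures of a line were grown. The p-values therefore measure only the spread between cultures of a condition, which the fit estimated from all 24 libraries.

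Of the mutated enzymes, Suv39h1 RNA fell and Suv39h2 RNA did not. Suv39h1, on chromosome X at 8061171 to 8074760 (GRCm38), had normalized counts of 2901, 2943 and 2923 in E1 and 1273, 1245 and 1249 in E1 S1S2. The groups did not overlap, and the gene fell by 1.22 on the log2 scale (SE 0.0468, adjusted p = 3.3e-15). Suv39h2 stood at 911, 907 and 952 in E1 and at 1538, 1837 and 1688 in E1 S1S2. It was thus higher in each E1 S1S2 library, by 0.87 on the log2 scale (SE 0.0729, adjusted p = 1.5e-09), which is under the fold minimum. The mutations were made as small changes inside the catalytic domain, so the total RNA of a gene does not show whether its protein is made. By the study's methods, clone B1 was chosen because western blots found neither Suv39h1 nor Suv39h2 protein. Exons of Suv39h1 overlap the antisense gene Gm14820 over 767 bases and those of Suv39h2 overlap Dclre1c over 357 bases, and which strand setting was used in counting is not given in the sources used here. The remaining enzymes were not called. Setdb1, deleted in both groups, had 987, 1084 and 999 normalized counts in E1 and 978, 1018 and 1048 in E1 S1S2, all below the WT libraries (1467 to 1601), and these overlapped (log2 fold change -0.01, adjusted p = 0.92). Setdb2 had a log2 fold change of -0.41 (adjusted p = 0.00042), Ehmt1, which encodes Glp, one of -0.08 and Ehmt2, which encodes G9a, one of 0.36.

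Major satellite RNA was upregulated. The element GSAT_MM, the major satellite, had normalized counts of 400, 417 and 472 in E1 and 4186, 4841 and 4412 in E1 S1S2. The lowest E1 S1S2 library was far above the highest E1 library, and the log2 fold change was 3.38 (SE 0.122, adjusted p = 5.5e-27). In WT its mean was 267, in E1E2 its normalized counts were 530 to 617, and in 6KO1, which was made from the same clone B1 by mutating Eset2, G9a and Glp as well, the mean was 27809. No other satellite element was called. SYNREP_MM stood at 114, 142 and 121 in E1 and at 167, 217 and 206 in E1 S1S2, a log2 fold change of 0.64 (adjusted p = 0.003) with no overlap between the groups. MMSAT4, the satellite element with most counts, stood at 3885, 4673 and 4715 against 5089, 5920 and 5467, also without overlap, and its log2 fold change of 0.31 had an adjusted p of 0.11. For ZP3AR and IMPB_01 the log2 fold changes were 0.23 and 0.17. In 6KO2 against E1E2 G9Gl, GSAT_MM rose by 4.72 on the log2 scale, and the difference of -1.34 between both additions (SE 0.161, adjusted p = 2.3e-09) was itself called, so the rise was smaller on Eset1 deletion alone.

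**Figure D1:**
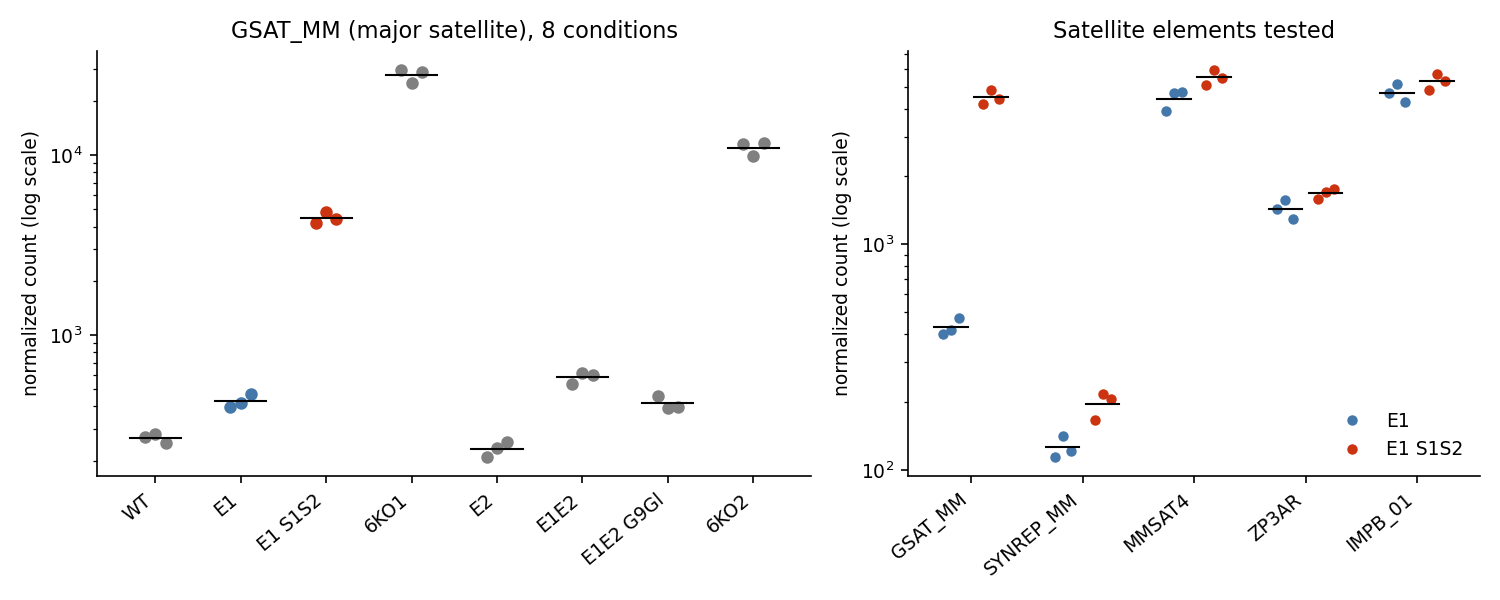
Satellite repeat RNA. Left, normalized counts of GSAT_MM (log scale) in each of the 3 libraries of the 8 conditions; right, normalized counts (log scale) of the 5 satellite elements tested in E1 and E1 S1S2, 1 point per library. The E1 S1S2 libraries (4186 to 4841) lie above the E1 libraries (400 to 472) and below those of 6KO1 and 6KO2.

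Summed over all its elements, the satellite class had 10511, 11924 and 10860 normalized counts in E1 and 15875, 18388 and 17155 in E1 S1S2, a ratio of 1.54 (p = 0.1 in a two-sided exact test that permutes libraries, below which 3 against 3 cannot go). Without GSAT_MM the ratio was 1.19. The LTR class, which holds the endogenous retroviruses, was lower in E1 S1S2, with 1366440, 1383330 and 1259940 against 1043190, 1089250 and 1080210 and a ratio of 0.801 (exact permutation test, p = 0.1). In E1E2, without Suv39h mutation, the LTR class mean was lower still, at 886584. Without the single element MuLV-int the LTR ratio was 1.12, so the direction of the class total rested on that element. Ratios for LINE (1.08, p = 0.4), SINE (1.08, p = 0.3) and DNA elements (1.03, p = 0.8) came from groups that overlapped, by the same exact test.

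Of the 1207 repeat elements tested, 18 (1.49%) rose and 14 (1.16%) fell, and the median log2 fold change was 0.10. LTR elements made up 26 of the 32 calls, with 14 higher and 12 lower among 579. Within that class, ERV1 elements gave 6 higher and 3 lower of 105, and ERVK elements 7 higher and 9 lower of 270, while none of the 92 ERVL and none of the 92 ERVL-MaLR elements was called. Among LINE elements 1 of 255 rose (L1MdGf_II_5end_ORF1only, log2 fold change 1.10), and of 37 SINE elements none was called. MuLV-int, the internal part of murine leukemia virus, had 513822, 474480 and 441958 normalized counts in E1 and 112301, 104197 and 114645 in E1 S1S2. It fell without overlap by 2.11 on the log2 scale and lay far above the WT mean of 4591. In E2 and E1E2, which carry no Suv39h mutation, its means were 99341 and 62169, below every E1 S1S2 library. Its promoter repeats and related internal parts fell too, RLTR4_Mm with a log2 fold change of -1.92 and RLTR4_MM-int with -1.54. E1E2 means were 7390 for RLTR4_Mm and 19800 for RLTR4_MM-int, beside 9969 and 35081 in E1 S1S2.

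IAP elements, a family of ERVK retrotransposons, moved both ways. IAPLTR3-int rose from 199, 206 and 203 to 2750, 2983 and 2840 normalized counts, with no overlap and a log2 fold change of 3.82. Its LTR, IAPLTR3, rose by 2.49. In E1E2 the means of IAPLTR3-int and IAPLTR3 were 194 and 12.2, near E1. IAP1-MM_I-int fell from 1526, 1582 and 1515 to 402, 429 and 469, a log2 fold change of -1.83, again with the groups apart. IAP1-MM_LTR (-1.60), IAPLTR4 (-1.28), IAPEY4_LTR (-1.14) and IAPEY3-int (-1.06) fell as well. These elements were also low in E1E2, with means of 261 for IAP1-MM_I-int, 112 for IAP1-MM_LTR and 213 for IAPLTR4. IAPEY4_LTR and IAPEY3-int had 59.9 and 597 there, beside E1 means of 152 and 1216. ETn-related elements also split, since ETnERV-int rose by 1.33 and ETnERV3-int had a log2 fold change of -1.80.

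RLTR6-int, the internal part of an ERV1 retrovirus, rose from 10818, 11029 and 11225 to 37532, 36001 and 36430, and the groups were apart (log2 fold change 1.73). Related entries of the same kind rose with it, RLTR6B_Mm by 1.94, RLTR6_Mm by 1.18 and MURVY-int by 1.62. Means in E1E2, without Suv39h mutation, were also above E1 for RLTR6-int (22679 beside 11024), RLTR6B_Mm (1048 beside 499) and RLTR6_Mm (12208 beside 6283.5). They stayed below every E1 S1S2 library. MURVY-int was near its E1 level there (94.97 beside 94.32). MMERVK10D3_I-int, an ERVK internal part, rose from 4646, 5183 and 5061 to 17519, 18588 and 18046, a log2 fold change of 1.86. RLTR10D2, an ERVK LTR, stood at 633, 629 and 634 in E1 and rose to 2336, 2171 and 2352, a log2 fold change of 1.85. LTR109A2 had 1 count over the 3 E1 libraries and normalized counts of 17.9, 20.7 and 20.5 in E1 S1S2, while RLTR9A3A fell from 90.2, 79.4 and 59.4 to 11.7, 10.8 and 7.14. RLTR46B (2.02), MMERVK10D3_LTR (1.59), MamGypsy2-I (1.48) and RLTR30C_MM (1.31) also rose, and RLTR45-int fell by 1.33 on the log2 scale. Means in E1E2 were also above E1 for RLTR46B (31.8 beside 11.8) and RLTR30C_MM (31.5 beside 16.2). In E1 S1S2 these 2 had low means too, of 48.5 and 40.4. MMERVK10D3_LTR was near E1 in E1E2 (18.3 beside 16.4), and MamGypsy2-I was below it (22.7 beside 54.1). A count for a repeat element is a sum over its copies, with multi-mapping reads shared among them, so entries with similar sequence are not independent.

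**Figure D2:**
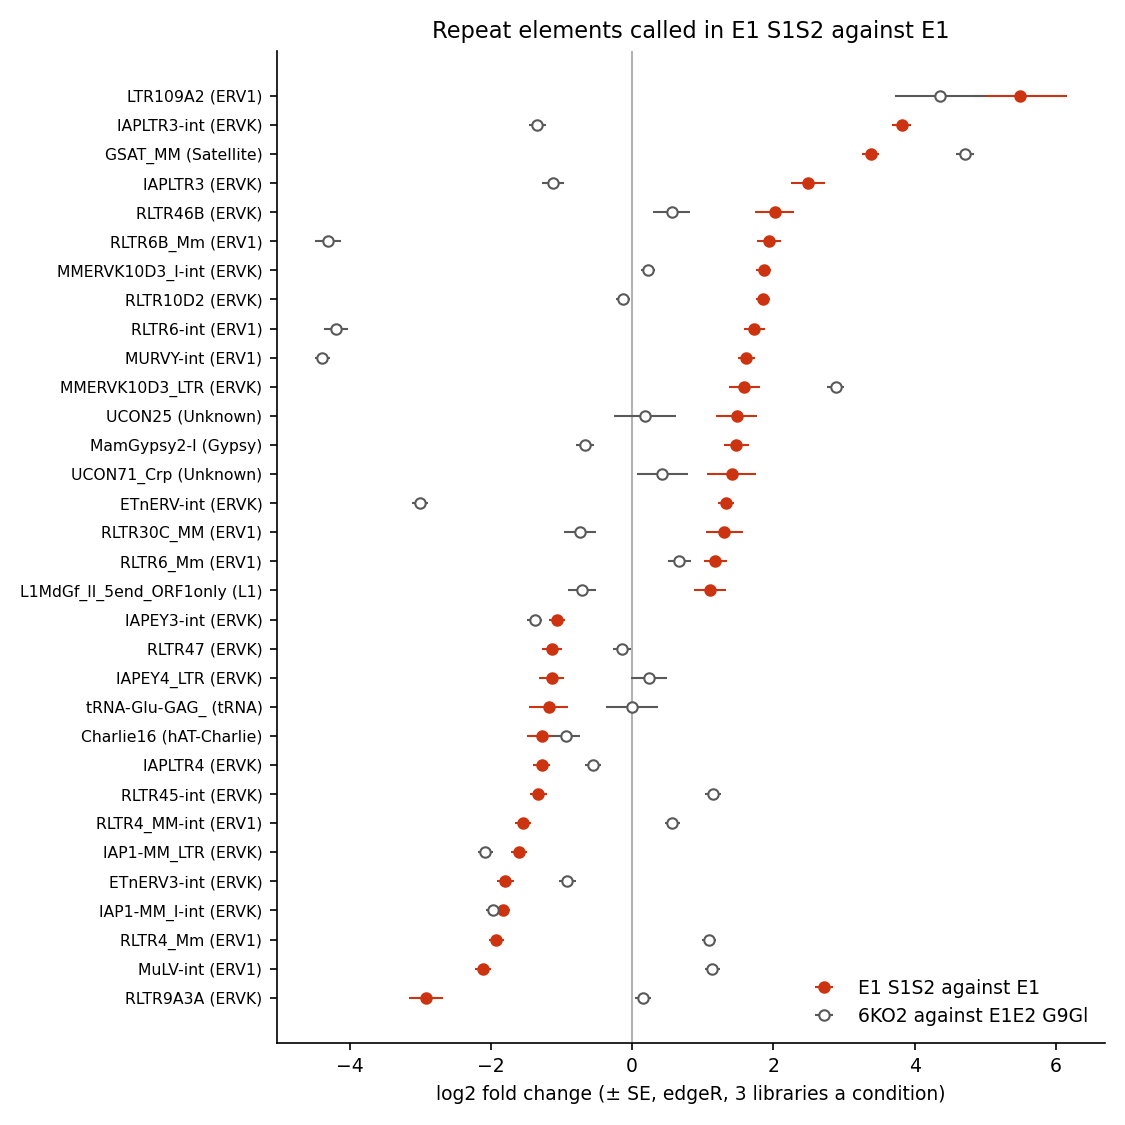
Log2 fold change of E1 S1S2 against E1 (horizontal axis, points with SE from edgeR, 3 libraries a condition) for repeat elements called, with the family of each in parentheses. In E1 S1S2 against E1, the largest rises with ample counts were those of IAPLTR3-int (3.82) and GSAT_MM (3.38), and MuLV-int (-2.11) had the most counts among those that fell.

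Across genes, 801 (4.31%) rose and 696 (3.75%) fell of 18565 tested, around a median of -0.01. The median size of a called change was 1.56 among genes that rose and 1.94 among genes that fell. A log2 fold change of at least 2 in size was reached by 247 and 329 of them, and one of at least 3 by 116 and 159. Libraries of the groups did not overlap for 799 of the 801 and 694 of the 696. Protein-coding genes gave 648 higher and 581 lower of 13491, lincRNAs 26 and 19 of 500, and antisense genes 25 and 16 of 420. A mean of at least 100 normalized counts in the higher group was reached by 347 of the genes that rose and 256 of those that fell.

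Among genes at that level with libraries apart, and leaving out genes known only by a Gm, Rik or clone name, Kbtbd11, a Kelch and BTB domain protein, had the largest rise. Its normalized counts were 2.91, 3.92 and 5.24 in E1 and 282, 274 and 268 in E1 S1S2, a log2 fold change of 6.04 (SE of 0.291 and adjusted p = 1.4e-13), although 1772 of its 7137 exon bases overlap the antisense gene Gm37844. Cp, which encodes the copper-carrying ferroxidase ceruloplasmin, rose from 6.79, 5.88 and 7.86 to 276, 254 and 260, a log2 fold change of 5.23. Dclk1, a microtubule-associated kinase of neurons, rose from 35.9, 37.2 and 24.4 to 963, 1008 and 967, a log2 fold change of 4.92. In all 3 genes the groups were far apart. The WT means were 19.1 for Kbtbd11, 42.7 for Cp and 106 for Dclk1, and those of E1E2 were 29.4, 71.9 and 28.6. Scn3a, a voltage-gated sodium channel, rose from 48.5, 44.1 and 38.4 to 706, 687 and 711 (log2 fold change 4.01). Further genes with known neuronal roles were Stmn4, a regulator of microtubules (3.93), and Syt7, a calcium sensor of vesicle release (3.47). The remaining genes of the 15 largest rises were Serpinb1a, a protease inhibitor (3.64), Gvin1, an interferon-inducible GTPase (3.59), Zfp978 (3.52), Tbc1d9 (3.44), the carboxylesterase Ces2e (3.40), the signalling ligand Wnt7a (3.40), the scavenger receptor Scara3 (3.32), xanthine dehydrogenase Xdh (3.27) and Rasgef1a (3.26). Of these, Tbc1d9 shares 819 of 5887 exon bases with the antisense gene Gm10645. Without Suv39h mutation, E1E2 means were also above E1 for Gvin1 (216 beside 28.02), Stmn4 (73.8 beside 8.002) and Ces2e (62.6 beside 9.71). So were those of Serpinb1a (91.3 beside 16.2), Rasgef1a (54.6 beside 15.02), Tbc1d9 (117 beside 41.6), Xdh (67.4 beside 42.8) and Wnt7a (30.6 beside 21.8). All stayed below every E1 S1S2 library. Scn3a (36.7 beside 43.7), Syt7 (2.13 beside 9.23), Zfp978 (7.16 beside 15.6) and Scara3 (0.342 beside 38.6) were below E1 in E1E2.

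The largest falls by the same rule ended near 0. Zfp422, a zinc finger gene, had 209, 207 and 235 normalized counts in E1 and 0, 0.899 and 0 in E1 S1S2. As this was 1 count against 696, the ratio of 766 had a 95% counting interval of 137 to 30299. Eif4g3, a translation initiation factor, had 251, 244 and 217 in E1 against 0, 0.899 and 1.79, a ratio of 278 (95% counting interval 94.7 to 1350). Thy1, a surface protein common on fibroblasts, had 188, 165 and 202 against 0.777, 0 and 1.79, a ratio of 218 (74.1 to 1058). All 3 genes had fewer than 2 normalized counts in every E1 S1S2 library. Zfp422 was also at or near 0 in all mutant lines other than E1, with means of 0.297 in E2 and 0 in E1E2, which carry no Suv39h mutation, and of 0.357 at most elsewhere. Means in E1E2 were 8.56 for Eif4g3 and 48.9 for Thy1, both below E1 as well. The microfibril gene Fbn2 (338, 93.1 to 2796) and Tnfsf11, which encodes the osteoclast factor RANKL (234, 64.5 to 1942), had similarly large ratios, and these intervals cover counting error only. In E1E2 the means of Fbn2 and Tnfsf11 were 13.2 and 53.4, beside 194 and 133 in E1.

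Other large falls left more counts. Coch, which encodes the secreted protein cochlin, fell from 1189, 1289 and 1309 to 16.3, 17.1 and 18.8, a log2 fold change of -6.18 (SE of 0.163 and adjusted p = 4.1e-18). Crabp1, the cellular retinoic acid-binding protein, fell from 7020, 5928 and 7885 to 168, 136 and 141, a log2 fold change of -5.54. Isyna1, the enzyme that makes inositol phosphate from glucose phosphate, fell from 998, 925 and 1020 to 25.6, 21.6 and 25, a log2 fold change of -5.34. In each the groups lay far apart, and E1E2 had means of 1356 for Coch, 4406 for Crabp1 and 790 for Isyna1. Pdzrn3 (-6.35), the bicarbonate transporter Slc4a4 (-5.99), Serpinf1, which encodes the secreted factor PEDF (-5.84), the collagen gene Col6a3 (-5.57), the kinase Rps6ka6 (-5.47), Bcl6b (-4.77) and the adhesion receptor Adgrl3 (-4.75) completed the list of largest falls. E1E2, without Suv39h mutation, also had low means for Pdzrn3 (17.6 beside 126 in E1), Serpinf1 (30.8 beside 445) and Col6a3 (19.6 beside 221). Rps6ka6 (1.69 beside 119) and Adgrl3 (19.8 beside 110) were low there too, whereas Slc4a4 (575 beside 476) and Bcl6b (126 beside 135) were not.

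**Figure D3:**
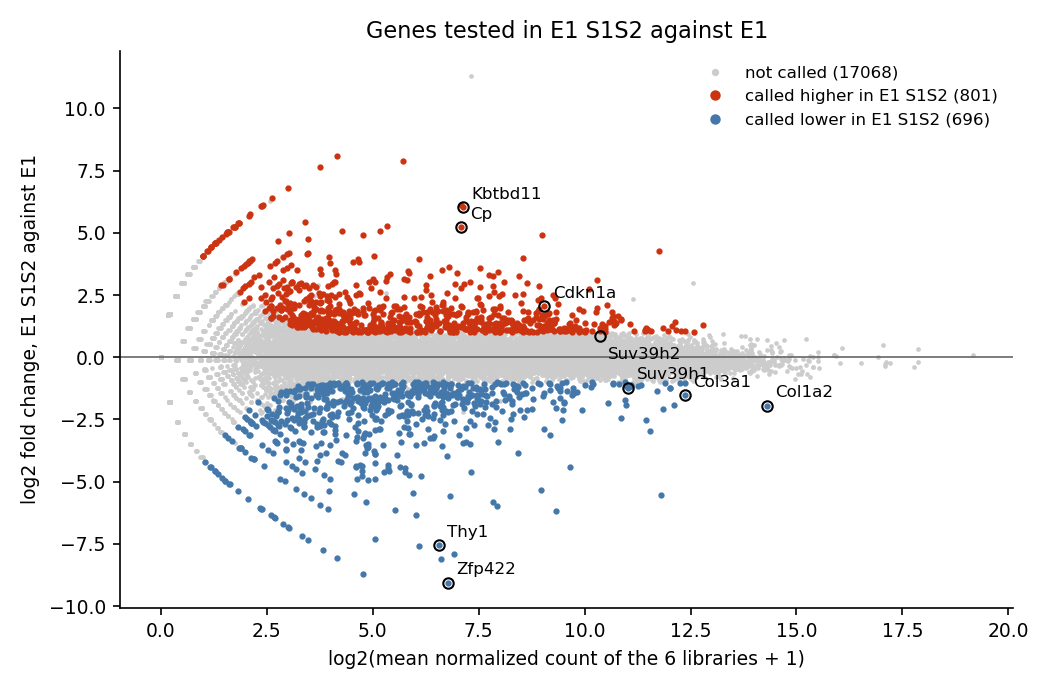
Log2 fold change of E1 S1S2 against E1 (vertical axis) against log2 of the mean normalized count of the 6 libraries plus 1 (horizontal axis) for the 18565 genes tested, with called genes coloured. Called genes lie on both sides, 801 above and 696 below, and the largest falls, such as that of Zfp422, rest on 3 counts or fewer in E1 S1S2.

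Pattern recognition and interferon response genes had the highest median log2 fold change of the 17 lists examined. Of 60 tested members, 24 rose and 1 fell, beside 4.31% and 3.75% of all genes, and the median log2 fold change was 0.92 against -0.01 over all genes. A positive fold change was found for 53 of the 60. The list was compiled with earlier results of these data known, and many of its members respond to the same signal, so they are not independent. Promoters of this group often carry an interferon-stimulated response element, whose core was searched here on both strands as the letters GAAANNGAAA, where overlapping matches were allowed. The RefSeq promoter table (GRCm38.p6, 250 bases before to 50 after each gene's start) holds 16 of the 24 genes that rose, and 10 of these (62.5%) contain the letters, as do 11 of the 29 other list members in the table (37.9%). Among all 27025 genes with a promoter there the share was 3.99%, and it was 8.45% of 497 genes called higher and 4.10% of 463 called lower. The windows below show 1 match per gene in capitals with 10 bases on each side, for 8 of those 10 genes. Each is printed on the strand where the motif reads this way. Ifit1, Oas1a, Ifit3 and Gbp3 have a further match each that is not marked, and in Oas1a and Gbp3 it overlaps the capitals. The windows are shown because the motif is the stretch of sequence these genes have in common. The letters of Oas1a recur in Oas1g and those of Ifit3 in Ifit3b, which are near-identical copies. A match describes the letters only and is not evidence that a factor was bound.
Oas3, chr5:120777715-120777744, minus strand: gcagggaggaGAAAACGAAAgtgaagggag
Rsad2, chr12:26456553-26456582, plus strand: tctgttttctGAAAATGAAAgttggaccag
Ifit1, chr19:34640794-34640823, minus strand: tcagcagtgaGAAACTGAAActgagactgg
Oas1a, chr5:120907520-120907549, minus strand: tcgggaaatgGAAACTGAAAatctacttcc
Ifit3, chr19:34583397-34583426, minus strand: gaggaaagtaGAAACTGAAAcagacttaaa
Gbp2, chr3:142620594-142620623, minus strand: ttaagacagtGAAAGTGAAActaaaagagt
Gbp3, chr3:142559989-142560018, minus strand: ctgggaaataGAAACTGAAActgtgtcctg
Igtp, chr11:58199512-58199541, plus strand: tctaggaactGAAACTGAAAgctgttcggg

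Sensors of nucleic acid and their relatives were among the genes that rose. Zbp1, a sensor of Z-form nucleic acid, had 10.7, 9.80 and 14.0 normalized counts in E1 and 91.7, 110 and 96.4 in E1 S1S2, a log2 fold change of 3.09 (SE of 0.277 and adjusted p = 4.4e-09). Oas3, which makes oligoadenylate when it binds double-stranded RNA and whose window heads the sequences above, rose from 31.0, 27.4 and 26.2 to 224, 189 and 237, a log2 fold change of 2.94. Oasl1, a relative of the OAS enzymes, rose from 985, 926 and 974 to 2501, 2327 and 2589, a log2 fold change of 1.36. The groups were apart for each. WT means were 9.79 for Zbp1, 2.26 for Oas3 and 300 for Oasl1. E1E2, without Suv39h mutation, held levels near those of E1 S1S2, with 110 to 121 normalized counts of Zbp1, 143 to 159 of Oas3 and 2267 to 2466 of Oasl1. The cytosolic RNA sensors Ddx58 (RIG-I) and Ifih1 (MDA5) were not called, with log2 fold changes of 0.91 and 0.40, and neither was their adaptor Mavs (0.16). Of the endosomal and surface receptors, Tlr3 stood at 0.92 and Tlr4 at -0.85.

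Antiviral effectors rose as well. Rsad2, which encodes viperin, stood at 688, 706 and 723 in E1 and at 2504, 2535 and 2448 in E1 S1S2, a log2 fold change of 1.82 (SE of 0.190 and adjusted p = 4.7e-08). Ifit2, which binds viral RNA, rose from 1597, 1722 and 1875 to 3612, 3910 and 3656, a log2 fold change of 1.11. Neither gene overlapped between groups. In E1E2, Rsad2 stood at 2281 to 3136 and Ifit2 at 2914 to 3553, again near E1 S1S2. Ifi27 rose by 1.10, to a mean of 399 beside 390 in E1E2. High levels of these genes were thus not particular to the line with Suv39h mutation, and E1 S1S2 was not tested against E1E2. The following members fall outside the rule that chose the genes above and were named after their values were seen. Regulators of the response rose, namely the transcription factor Irf7 (2.13) and the negative regulator Usp18 (2.51), and so did Oas2 (3.02), Ifit1 (1.36) and Mx2 (1.73). Isg15, the ubiquitin-like modifier, stood at 0.96 and was not called. The single member that fell was Psmb8, an immunoproteasome subunit, from 33.9, 33.3 and 38.4 to 6.22, 1.8 and 3.57, a log2 fold change of -3.11. Under every alternative that kept the fold minimum, between 20 and 25 members rose.

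**Figure D4:**
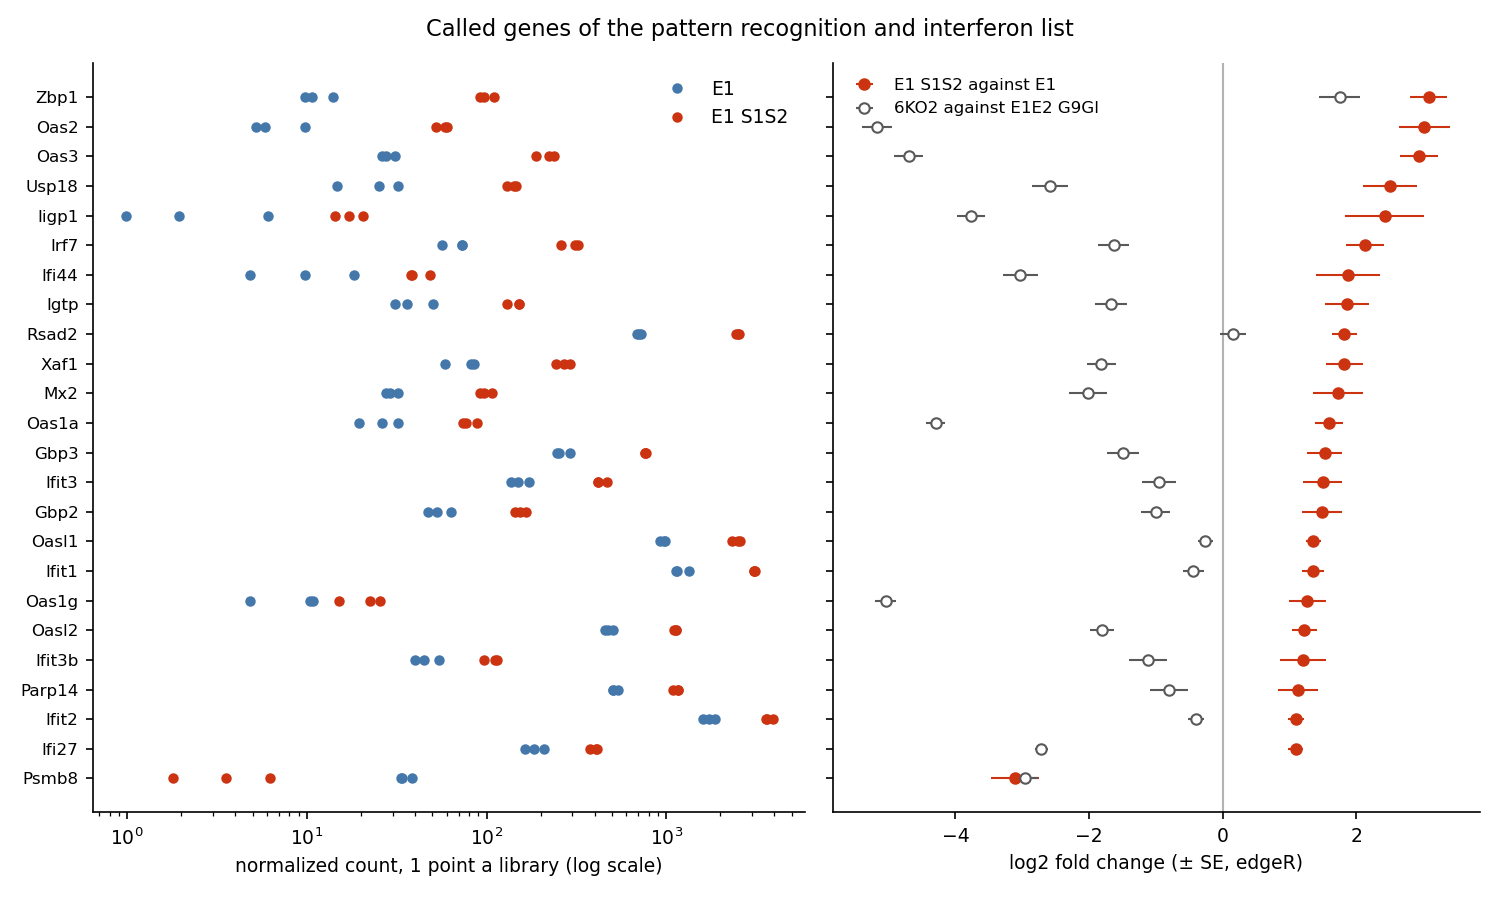
Called genes reported here from the pattern recognition and interferon list. Left, normalized counts (log scale), 1 point per library of E1 and E1 S1S2; right, log2 fold changes with SE for E1 S1S2 against E1 and for 6KO2 against E1E2 G9Gl. In E1 S1S2 the genes shown are higher except Psmb8, which is lower, whereas in the second addition many of these genes lie below 0, Oas3 at -4.70.

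Of the p53 targets and cell cycle inhibitors, 5 of 31 rose and none fell, beside 4.31% and 3.75% of all genes, with a median of 0.18. Cdkn1a, the inhibitor p21, rose from 223, 189 and 203 to 821, 866 and 876, a log2 fold change of 2.06 (SE of 0.0654 and adjusted p = 9.0e-17). Pmaip1, the cell death gene Noxa, rose from 141, 160 and 175 to 777, 833 and 755, a log2 fold change of 2.31. Trp53inp1, a p53-induced nuclear protein, rose from 286, 274 and 288 to 957, 1080 and 978, a log2 fold change of 1.83. Each of these genes had every E1 S1S2 library above every E1 library. In E1E2, Cdkn1a stood at 942 to 986 and Trp53inp1 at 1201 to 1251, above every E1 S1S2 library, whereas Pmaip1 stood at 167 to 179, near E1. The death receptor Fas (1.74) and cyclin G1, Ccng1 (1.09), also rose, and had means of 242 and 6366 in E1E2 beside 105 and 6218 in E1 S1S2. Mdm2, another p53 target and its inhibitor, stood at 0.46 and Cdkn2a at -0.12. None of the 38 proliferation genes was called, their median was -0.08 and 8 had a positive fold change. Mki67 stood at 0.28.

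Of 45 extracellular matrix genes, 13 fell and 3 rose, beside 3.75% and 4.31% of all genes, and the median was -0.43. Col1a2, a chain of type I collagen, fell from 33445, 32531 and 29683 to 8484, 7706 and 8646, a log2 fold change of -1.95 (SE of 0.0966 and adjusted p = 2.4e-13). Its partner chain Col1a1 went the other way without being called, with a log2 fold change of 0.75 (adjusted p = 0.0003). The proteoglycan biglycan, Bgn, fell from 7040, 6952 and 6919 to 1873, 1757 and 1880, a log2 fold change of -1.92. In Col1a2 and Bgn the groups were well separated. Type III collagen, Col3a1, fell by 1.52 on the log2 scale, the type VI chains Col6a1, Col6a2 and Col6a3 by 1.16, 1.17 and 5.57, and the metalloproteinase inhibitor Timp3 by 1.35, with 1733 of its 8144 exon bases antisense to Syn3. Adamts1, Ccn2, Thbs2, Mmp9 and Tnc, named after their values were seen, fell by 1.16, 1.05, 2.81, 1.92 and 1.01.

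The matrix genes that rose were the proteoglycan decorin, Dcn (2.17), and the stromelysins Mmp10 (2.29) and Mmp3. Mmp3 had no count in E1 and 30 in E1 S1S2, at least 9.09-fold higher against a limit of 3 counts over the E1 libraries. All collagen genes together, 14 of which are also in the matrix list, gave 2 higher and 5 lower of 28 with a median of -0.35, where all genes gave 4.31% and 3.75%. Both that rose, Col27a1 (2.06) and Col5a3 (1.35), lie outside the matrix list. Fibronectin, Fn1, stood at 0.10.

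**Figure D5:**
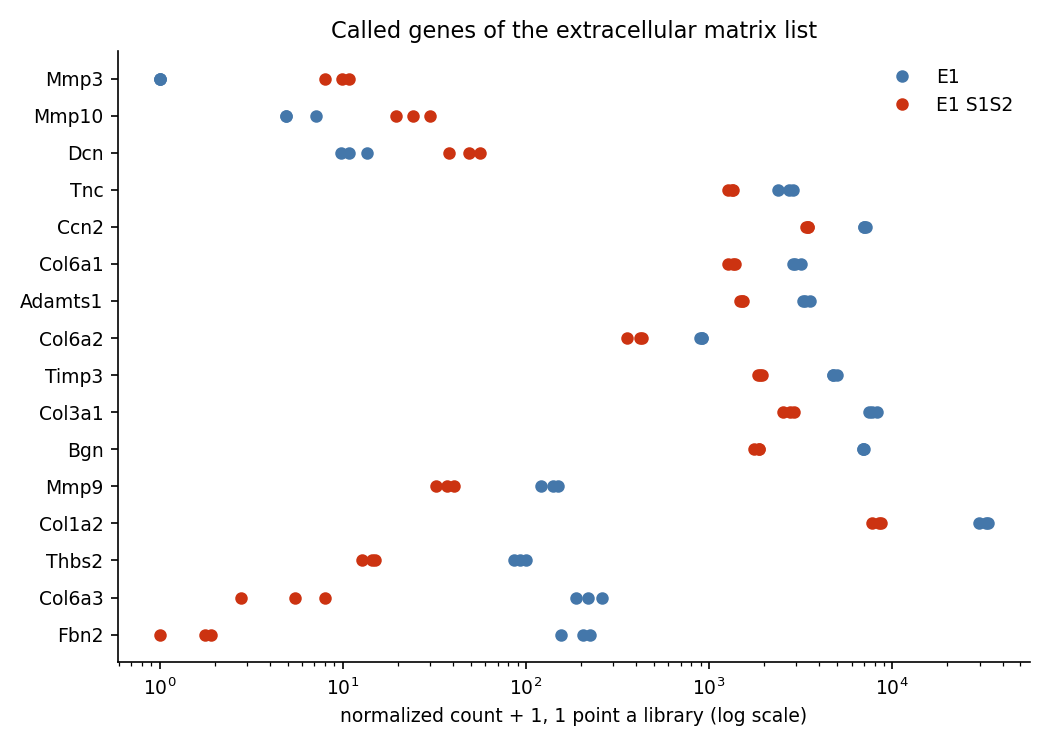
Called genes of the extracellular matrix list. Normalized counts plus 1 (log scale) in each of the 3 E1 and 3 E1 S1S2 libraries. 13 genes lie lower in E1 S1S2 and 3 (Dcn, Mmp3 and Mmp10) lie higher.

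Fibroblast identity was checked with 12 markers. Their summed level was 128895 to 137978 in E1 and 116734 to 129353 in E1 S1S2, with 1 marker higher (Dcn) and 5 lower (Col1a2, Col3a1, Thy1, S100a4 by 1.16 and Prrx1 by 1.23 on the log2 scale). Vim, the fibroblast intermediate filament, stood at 0.09, and Lum was at or near 0 in both groups. Of 5 smooth muscle markers, which activated fibroblasts also express, 2 fell and their sum was 9349 to 10682 in E1 and 2310 to 2488 in E1 S1S2. Acta2, smooth muscle actin, fell from 3166, 2914 and 3348 to 581, 571 and 599, a log2 fold change of -2.43. Tagln, an actin-binding protein, fell from 5275, 4705 and 5742 to 724, 626 and 684, a log2 fold change of -2.95. Neither overlapped between groups.

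Marker sums of other cell types were compared in the same way. The sum over 7 neural markers was 12445 to 14003 in E1 and 19647 to 21309 in E1 S1S2, with none called higher and Map2 called lower, and Nes, which fibroblasts in culture can express, stood at 0.75. Epithelial markers summed to 138 to 176 and 281 to 357, and 2 of 8 rose, Krt8 by 1.01 and Cldn4. Endothelial (21.3 to 33.3 against 34.2 to 37.3), skeletal muscle (59.4 to 70.6 against 103 to 107) and blood markers (90.8 to 99.0 against 111 to 143) were low in both groups, and the blood genes Ptprc, Cd3e and Hbb-bt were at 0. The skeletal muscle gene Des was the 1 member of its 7 that rose. Adipocyte markers summed to 50 to 60.1 in E1 and 8.93 to 13.5 in E1 S1S2, where Pparg, the adipogenic nuclear receptor, fell from 45.6, 44.1 and 42.8 to 0.777, 0.899 and 0.893, while the fatty acid carrier Fabp4 rose by 2.39 at under 8 normalized counts in every library. For cartilage and bone markers the sums were 932 to 1208 and 788 to 888. Their part in the matrix result was not tested. In cultures such as these, fewer cells of a type and less RNA per cell cannot be told apart.

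Few chromatin regulators were called. Tet1, which oxidises methylated cytosine, fell from 583, 535 and 458 to 106, 108 and 113, a log2 fold change of -2.26 (SE of 0.131 and adjusted p = 3.1e-12), and was the only call among 8 DNA methylation genes. Dnmt3a, a de novo methyltransferase, stood at 0.87 and the maintenance enzyme Dnmt1 at -0.44. Of 26 HP1 proteins, readers and cofactors, 1 was called, Atf7ip2, a relative of an Eset1 cofactor, with 18.4, 33.3 and 19.2 normalized counts in E1 and 0.777, 2.70 and 0.893 in E1 S1S2. Its mean in E1E2, without Suv39h mutation, was 1.69. The HP1 genes Cbx1, Cbx3 and Cbx5 stood at -0.12, -0.50 and -0.12. Mphosph8, a reader in the HUSH silencing complex, stood at -0.71. Of 30 Polycomb genes, 1 fell (Cbx7, -1.96), and the H3K27 methyltransferase Ezh2 stood at -0.17. None of 11 H3K9 demethylases and none of 15 lamina genes was called. The demethylase log2 fold changes ran from -1.49 for Kdm4d to 0.76 for Kdm7a, and those of the lamina genes from -0.81 for the lamin B receptor Lbr to 0.74 for Syne2. The lamin genes Lmna, Lmnb1 and Lmnb2 stood at -0.18, 0.01 and -0.50.

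Germline genes, often silenced by H3K9 and DNA methylation in somatic cells, gave 2 higher and 2 lower of 16, against 4.31% and 3.75% of all genes, with a median of 0.37. The RNA helicase gene Tdrd9 rose from 86.3, 87.2 and 70.7 to 300.0, 301 and 306, a log2 fold change of 1.90, and its WT mean was 0.987. The meiotic cohesin gene Stag3 fell from 245, 222 and 228 to 21.8, 35.1 and 23.2, a log2 fold change of -3.12. The groups were apart for both. The testis bromodomain gene Brdt rose by 1.20, and Tex19.1 fell by 2.02. E1E2 means were 65.8 for Stag3 and 16.7 for Tex19.1, below the E1 means of 232 and 43.0. Tdrd9 (155 beside 81.4) was above E1 there, and Brdt (18.4 beside 18.9) was near it. Imprinted genes gave 2 higher and 4 lower of 26, to be read against the same 4.31% and 3.75%, with a median of -0.10. The growth factor Igf2 rose from 10.7, 10.8 and 10.5 to 109, 77.3 and 95.5, a log2 fold change of 3.13, although its WT mean of 239 was higher still. Its neighbour H19, a noncoding RNA, fell by 1.58. Dlk1, a Notch ligand-like protein, fell from 293, 258 and 251 to 23.3, 18.9 and 32.1, a log2 fold change of -3.42. Its means were lower still in E2 (4.04) and E1E2 (6.71), which carry no Suv39h mutation. Sfmbt2 rose by 1.11, and Plagl1 and Phlda2 fell by 1.15 and 1.57. In E1E2 the mean of Plagl1 was also below E1 (66.4 beside 155), while Phlda2 (40.5 beside 48.3) and Sfmbt2 (205 beside 190) were near it.

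Zinc finger protein genes, many of which code for repressors of retroviruses, gave 15 higher and 16 lower of 438, shares near the 4.31% and 3.75% of all genes, with a median of 0.04. The members named here are therefore values of single genes and not a result about the list. Besides Zfp422, the calls with the smallest adjusted p were Zfp239 (-2.67), Zfp605 (-2.44), Zfp503 (-2.11), Zfp518a (-1.37) and Zfp978 (3.52). Named after their values were seen, Zfp982 (3.51), Zfp980 (2.83), Zfp985 (2.84), Zfp979 (1.53), Rex2 (3.79), Zfp600 (1.42) and Zfp534 (1.98) all rose and belong to a family of similar copies on distal chromosome 4. Zscan4c (2.5), Zscan4d (2.28) and Zscan4f (1.8), also near-identical copies, rose too, and counts of such copies may be split among them in an uncertain way. Zfp105 had no count in E1 S1S2 against 106 in E1, at least 38.9-fold lower against the same limit of 3 counts over a group, and Zfp990 had none in E1 against 16, at least 4.85-fold higher by that limit.

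Clustered protocadherins, adhesion proteins of neurons that sit in tandem arrays, gave 4 higher and 6 lower of 35, where all genes gave 4.31% and 3.75%. All 6 that fell were beta members, Pcdhb16 (-2.91), Pcdhb17 (-1.46), Pcdhb18 (-2.96), Pcdhb19 (-2.21), Pcdhb21 (-3.07) and Pcdhb22 (-2.17). All 4 that rose were gamma members, Pcdhga5 (2.11), Pcdhgb5 (1.88), Pcdhgb4 (1.71) and Pcdhga8 (1.54), and gamma exons share 3' sequence, so reads there may be divided uncertainly. Several of these calls rest on few reads. Means in E1 and E1 S1S2 were 3.12 and 14.0 for Pcdhga5, 4.73 and 17.8 for Pcdhgb5 and 9.35 and 1.12 for Pcdhb16. Pcdhb22 had 97.6 and 21.6. Only 2 protocadherins rose without E1 replicate 3 or without E1 S1S2 replicate 1. Of 29 Hox genes, 2 fell, beside 3.75% of all genes (Hoxa13, -3.41, and Hoxd8, with 3 counts in E1 S1S2 against 41), and without E1 replicate 2 another Hox gene passed as higher. Of 67 histone genes, 3 fell, a share near that 3.75% (Hist1h1a, -2.07, Hist1h2bf, -1.74, and Hist4h4, -1.09), with a median of -0.28.

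By chromosome, the median log2 fold change over genes with a mean of at least 100 normalized counts was -0.38 on chromosome 14, -0.37 on 9, -0.24 on 10, -0.20 on 1, 0.14 on 19 and 0.33 on X, and on the others lay within 0.11 of 0. Such shifts cover whole chromosomes, and whether the clone differs in chromosome number was not tested. After each gene's value was taken relative to its chromosome's median, Ifit2 (0.97), Col6a1 (-0.92), Col6a2 (-0.93), Plagl1 (-0.91) and Hist4h4 (-0.99) no longer passed the fold minimum. At a finer scale there were 11 runs of at least 4 neighbouring tested genes called in the same direction. Among them were the nuclear body genes Sp110 to Sp100 on chromosome 1 (85576899 to 85709998), with log2 fold changes of 2.85 to 5.05, and the protease inhibitors Serpinb1a to Serpinb9 on chromosome 13 (32842092 to 33017957), with 1.32 to 3.64. The stretch from Zfp985 to Zfp534 on chromosome 4 (147553277 to 147702553) also rose as a run, and the Pcdhb16 to Pcdhb19 stretch fell as one. Several other runs were mostly Gm or Rik entries, and the run at Pdzrn3 lay within the coordinates of that gene. How many runs would arise without any link between neighbours was not tested.

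The second addition of Suv39h1 and Suv39h2 mutation, in 6KO2 against E1E2 G9Gl, gave 1335 genes higher (7.19%) and 1693 lower (9.12%), and 22 repeat elements higher (1.82%) and 202 lower (16.7%). Of the 801 genes that rose in E1 S1S2, 204 (25.5%) also rose in 6KO2, which is 15.3% of the 1335, whereas 174 (21.7%) fell there. Of the 696 that fell, 180 (25.9%) also fell, which is 10.6% of the 1693, and 157 (22.6%) rose. A direct test of the difference between both additions called 1627 genes with the higher value in E1 S1S2 (8.76%) and 1432 with the lower (7.71%), and 940 (62.8%) of the 1497 genes called in E1 S1S2 were among them. For repeat elements this test gave 231 higher (19.1%) and 19 lower (1.57%). With scaling factors from the repeat elements alone it gave 79 and 62, so the split of the repeat calls depended on the scaling. Of the 32 elements called in E1 S1S2, 20 were called in the difference. Clone, order of mutation and genetic background all differ between both additions and cannot be told apart.

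Of the 31 p53 targets and cell cycle inhibitors, 10 rose and 2 fell in 6KO2 against E1E2 G9Gl (median 0.49), and 1 was called higher and 3 lower in the difference. The 5 that rose in E1 S1S2 rose both times. Cdkn1a rose by 2.06 on Eset1 deletion and by 2.13 in 6KO2, and the difference of -0.07 (SE 0.0928, adjusted p = 0.56) did not pass the test. Pmaip1 rose by 2.31 and 3.45, Trp53inp1 by 1.83 and 2.52, Fas by 1.74 and 1.71, and Ccng1 by 1.09 and 1.40, and of these Pmaip1 alone was called in the difference (-1.13, SE 0.236). Dclk1 (4.92 and 4.35), Stmn4 (3.93 and 3.27) and Wnt7a (3.40 and 2.58) rose both times without a call in the difference. Thy1 fell both times. Stag3 (-3.12 and -2.94) and Psmb8 (-3.11 and -2.96) fell both times as well.

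Interferon genes went apart between the additions. Where 24 members rose and 1 fell in E1 S1S2, 5 rose and 33 fell in 6KO2 against E1E2 G9Gl (median -1.13), and in the difference 44 of 60 were called higher and 4 lower. Oas3 had 3696, 3357 and 3467 normalized counts in E1E2 G9Gl and 165, 69.2 and 167 in 6KO2, a log2 fold change of -4.70, against 2.94 in E1 S1S2. The starting levels of the 2 lines thus differed widely, since E1 had 26.2 to 31.0. Oasl1 stood at -0.26 and Rsad2 at 0.16 in 6KO2, and the differences of 1.62 (SE 0.151) and 1.67 (SE 0.272) were called.

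Single elements and genes went either the same or the opposite way. IAPLTR3-int was already at 16027 to 16398 in E1E2 G9Gl and fell by 1.34 on the log2 scale in 6KO2, and RLTR6-int (-4.19), RLTR6B_Mm (-4.31) and MURVY-int (-4.39) fell there too. MuLV-int, which fell in E1 S1S2, rose by 1.13. By contrast, IAP1-MM_I-int (-1.83 and -1.96), IAP1-MM_LTR (-1.60 and -2.08) and IAPEY3-int (-1.06 and -1.38) fell both times. SYNREP_MM fell by 3.31 in 6KO2, in contrast to its log2 fold change of 0.64 here. Isyna1 (-5.34 and 2.72), Coch (-6.18 and 1.25), Crabp1 (-5.54 and 1.38), Col6a3 (-5.57 and 3.37) and Dlk1 (-3.42 and 5.78) fell in E1 S1S2 and rose in 6KO2. Col1a2 (-1.95 and -1.15), Col3a1 (-1.52 and -1.90) and Col6a1 (-1.16 and -1.03) fell both times. Tagln, lower in E1 S1S2 (-2.95), rose in 6KO2 (1.69), and Acta2 stood at -0.23 there. Matrix genes gave 7 higher and 11 lower in 6KO2 with a median of -0.05, and 7 of 45 were called higher and 12 lower in the difference. Collagen genes gave 3 higher and 12 lower of 28 in 6KO2, with a median of -0.73, and 7 were called higher and 1 lower in the difference.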

How the data were processed

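RNA-seq counts of 24 libraries, 3 biological replicates in each of 8 conditions, were analysed. The authors trimmed paired reads from stranded libraries (cutadapt 1.8.1), aligned them to GRCm38 (STAR 2.5.2b), and counted them with TEtranscripts, per the submitters' processing notes and the study's methods, and deposited whole-number counts per gene and repeat element without normalization. TEtranscripts shares multi-mapping reads among the copies of an element, so repeat counts carry the error of that sharing. The table held 47937 genes, of which 47224 have a symbol, and 1445 repeat elements. All columns were matched to libraries by name, and 1 malformed entry (0.00201% of counts) was left out.

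Low counts were removed with filterByExpr, and edgeR 4.0.16 (limma 3.58.1, R 4.3.3) was fitted to all 24 libraries with 1 coefficient per condition, with TMM factors and library sizes from genes for both kinds of feature. All tests were two-sided. Libraries of 1 group differed by more than counting error. Class totals were compared by exact permutation tests. Counting intervals and limits of a count of 0 cover counting error only. The fit was tested on simulated data. Gene positions and overlaps come from the GRCm38 annotation.

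The named genes were the 6 methyltransferase genes, the 15 largest rises and 15 largest falls with at least 100 normalized counts in the higher group and no overlap of libraries (Gm, Rik and clone names left out), up to 6 called members per list by adjusted p, all satellites, and the 10 repeat elements with the largest rises and falls. Some genes that enter the list counts are not reported here by name. Other names are marked or given as uncalled examples or markers. Members and lists were chosen with earlier results of these data known. The alternatives tried were DESeq2 1.42.0, RLE factors, DESeq2 size factors, repeat-based factors, other filters, no fold minimum, fewer libraries in the fit, a replicate block, leaving out each library, totals without the largest element and, chosen after seeing the data, chromosome-centred values and totals without GSAT_MM or MuLV-int. Figures were drawn with matplotlib 3.10.9.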

Additional observations from a re-analysis of the deposited data

Results flagged for a closer look

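Each value here is a log2 fold change of E1 S1S2 against E1 minus that of 6KO2 against E1E2 G9Gl, for a gene chosen by the naming rule, a called repeat element or a satellite whose values in both additions of Suv39h1 and Suv39h2 mutation differed by edgeR's test of the difference itself (size of 1 or more, adjusted p not above 0.01). Groups of 3 libraries were not searched for single outlying samples. Over all features, 1627 genes were higher and 1432 lower, and 231 repeat elements were higher and 19 lower.

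Higher values in E1 S1S2 were found for the interferon-related genes Oas3 (7.64), Gvin1 (7.62), Ifi27 (3.81), Rsad2 (1.67), Oasl1 (1.62) and Ifit2 (1.51). Among the largest rises they were found for Syt7 (5.30), Xdh (4.66), Serpinb1a (4.41), Cp (4.41), Kbtbd11 (4.18), Ces2e (3.47), Scara3 (3.28), Rasgef1a (3.25) and Scn3a (2.87). The remaining genes on this side were Sfmbt2 (3.62), Pcdhga5 (3.48), Pcdhgb5 (3.12), Igf2 (2.49), Col27a1 (2.30), Tex19.1 (1.82), Tdrd9 (1.79) and Brdt (1.53).

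Lower values in E1 S1S2 were found among the largest falls for Rps6ka6 (-11.62), Fbn2 (-10.57), Pdzrn3 (-9.85), Adgrl3 (-9.76), Col6a3 (-8.93), Isyna1 (-8.06), Bcl6b (-7.59), Coch (-7.43), Tnfsf11 (-7.32), Crabp1 (-6.93), Serpinf1 (-6.50), Slc4a4 (-6.13) and Eif4g3 (-5.78). Members of arrays and imprinted genes on this side were Hoxd8 (-10.19), Hoxa13 (-2.42), Pcdhb16 (-7.33), Pcdhb21 (-6.30), Pcdhb22 (-6.25), Pcdhb17 (-3.66), Dlk1 (-9.21), H19 (-5.04) and Plagl1 (-1.94). Chromatin, zinc finger and histone genes were Atf7ip2 (-6.66), Tet1 (-2.35), Zfp978 (-6.20), Zfp239 (-2.46), Zfp605 (-2.36), Zfp503 (-1.84), Hist4h4 (-2.04), Hist1h1a (-1.69) and Hist1h2bf (-1.02), and Bgn (-1.34) and Pmaip1 (-1.13) were lower as well. A condition with 3 counts or fewer entered the values of Rps6ka6, Fbn2, Adgrl3, Tnfsf11, Eif4g3, Hoxd8, Pcdhb16, Pcdhb21, H19, Atf7ip2 and Zfp978, which therefore depend on the prior count of the fit and are no bounds.

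Of repeat elements, RLTR6B_Mm (6.24), MURVY-int (6.0), RLTR6-int (5.93), IAPLTR3-int (5.16), ETnERV-int (4.33), SYNREP_MM (3.95), IAPLTR3 (3.61), MamGypsy2-I (2.15), RLTR30C_MM (2.05), RLTR10D2 (1.99), L1MdGf_II_5end_ORF1only (1.81), MMERVK10D3_I-int (1.64) and RLTR46B (1.46) were higher in E1 S1S2. MuLV-int (-3.24), RLTR9A3A (-3.08), RLTR4_Mm (-3.01), RLTR45-int (-2.47), RLTR4_MM-int (-2.11), IAPEY4_LTR (-1.38), GSAT_MM (-1.34) and MMERVK10D3_LTR (-1.30) were lower.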

How the results depend on the processing

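Of the 106 genes and repeat elements named by rule, 96 kept their direction and call under every alternative in which they were tested. Some alternatives covered fewer of them, 71 with a mean above 100 normalized counts and only the 24 repeat elements with repeat-based factors. Without a fold minimum, 2996 genes were higher and 3220 lower, 49 repeat elements higher and 32 lower, and in the difference between both additions 3477 and 3799 genes and 519 and 38 repeat elements. With a mean above 100 normalized counts, where fewer genes were tested, 357 rose and 275 fell. Factors from repeat elements alone gave 79 and 62 elements in the difference and an LTR ratio of 0.743, and the cause was not tested. The LTR ratio was 0.658 without MMVL30-int and 1.12 without MuLV-int, and the satellite ratio 1.75 without MMSAT4 and 1.19 without GSAT_MM. Leaving out 1 library gave 701 to 753 genes higher and 633 to 671 lower, 17 to 20 repeat elements higher and 13 to 16 lower, and in the difference 1541 to 1637 and 1303 to 1480 genes and 197 to 265 and 19 to 23 elements. The class ratios then ranged over 0.779 to 0.815 (LTR), 1.03 to 1.15 (LINE), 1.04 to 1.13 (SINE), 0.985 to 1.11 (DNA) and 1.49 to 1.60 (satellite). Setdb1, with -0.01 and no call, stood between -0.0379 and 0.0301 when 1 library was left out, above 0 without E1 replicate 2 and, at 0.014, without E1 S1S2 replicate 1. Hist4h4 stood at -0.92 without E1 replicate 3. DESeq2 called 772 genes higher and 662 lower and 17 and 14 repeat elements. Same-numbered libraries share only a number, since their deviations correlated with r of 0.0524, -0.00589 and -0.0311, and with a replicate block 792 genes were higher and 695 lower, 18 and 14 repeat elements, and in the difference 1618 and 1419 genes and 230 and 20 elements. Changes of genes under 20 normalized counts rest on few reads, and 203 of the genes that rose and 178 of those that fell have a higher mean under that level.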
